A study of Sus scrofa with 18 samples.

Results

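The genes described here encode the calcium store machinery of the pig myometrium, from phospholipase C beta to the channels and the pump of the sarcoplasmic reticulum. They are PLCB1, PLCB3 and PLCB4, ITPR1, ITPR2 and ITPR3, IRAG1, ATP2A2, RYR2 and RYR3. All 10 were chosen by name and placed on the RefSeq annotation of Sscrofa11.1, out of 19550 protein-coding genes on the named chromosomes. IRAG1 is listed there under its older symbol, MRVI1. Every H3K4me3 or H3K27ac peak that overlapped a gene or the 3 kb on either side of it was counted.

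The study profiled both histone marks by CUT&Tag, in which an antibody against the mark directs a transposase to the chromatin. The 18 libraries came from Yorkshire gilts and comprise 12 mark libraries and 6 IgG controls, with 2 gilts per group. GD15M_CM is the circular muscle on day 15 of pregnancy, GD15M_LM the longitudinal muscle on the same day, and CD15M_CM the circular muscle on day 15 of the estrous cycle. All were taken from the mesometrial side of the uterus after the endometrium was removed, and longitudinal muscle of the cycle was not analysed here. Peaks were called on the pooled reads of the gilts of a group, so each group and mark gave 1 list. The lists hold no value per gilt, values per gilt were not used here, and the differences below therefore have no replicate check and no test.

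The lists held between 31910 and 36331 peaks for H3K4me3 and between 57010 and 82037 for H3K27ac. For both marks GD15M_LM held the fewest and CD15M_CM the most. Because lists of different depth do not share a scale of fold enrichment over IgG, a gene was described by the percentile of its strongest peak among all peaks of the same list, with 0 for a gene without a peak. All 8 smooth muscle markers, among them ACTA2, MYH11 and DES, carried both marks in all 3 tissues. Their median H3K4me3 percentile was 80.0 in GD15M_CM, 90.1 in GD15M_LM and 87.3 in CD15M_CM.

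Smooth muscle of the uterus contracts when the calcium concentration in the cell rises. Receptors for oxytocin and for some prostaglandins act through Gq proteins on phospholipase C beta, which cuts a membrane lipid into diacylglycerol and inositol trisphosphate (IP3), and IP3 opens the IP3 receptors of the sarcoplasmic reticulum. Ryanodine receptors release calcium from the same store, SERCA pumps refill it, and IRAG1 holds back IP3 receptor opening when it is phosphorylated by cGMP-dependent kinase. H3K4me3 is found at the promoters of active genes, whereas H3K27ac is found at enhancers as well.

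All 10 genes had an H3K4me3 peak in all 3 tissues, and 9 of 10 had an H3K27ac peak in all 3. RYR3 had none in GD15M_CM. Among all protein-coding genes, 73.7%, 74.6% and 75.4% had an H3K4me3 peak in GD15M_CM, GD15M_LM and CD15M_CM, and 73.9%, 73.1% and 75.8% an H3K27ac peak. For genes of at least 100 kb, as 7 of these 10 are, the shares were 86.7%, 89.2% and 89.6% for H3K4me3 and 83.9%, 86.9% and 89.8% for H3K27ac. The median percentile of the 10 strongest H3K4me3 peaks was 83.4, 80.7 and 84.2 in the same order, and that of H3K27ac was 84.1, 88.7 and 87.9.

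**Figure D1:**
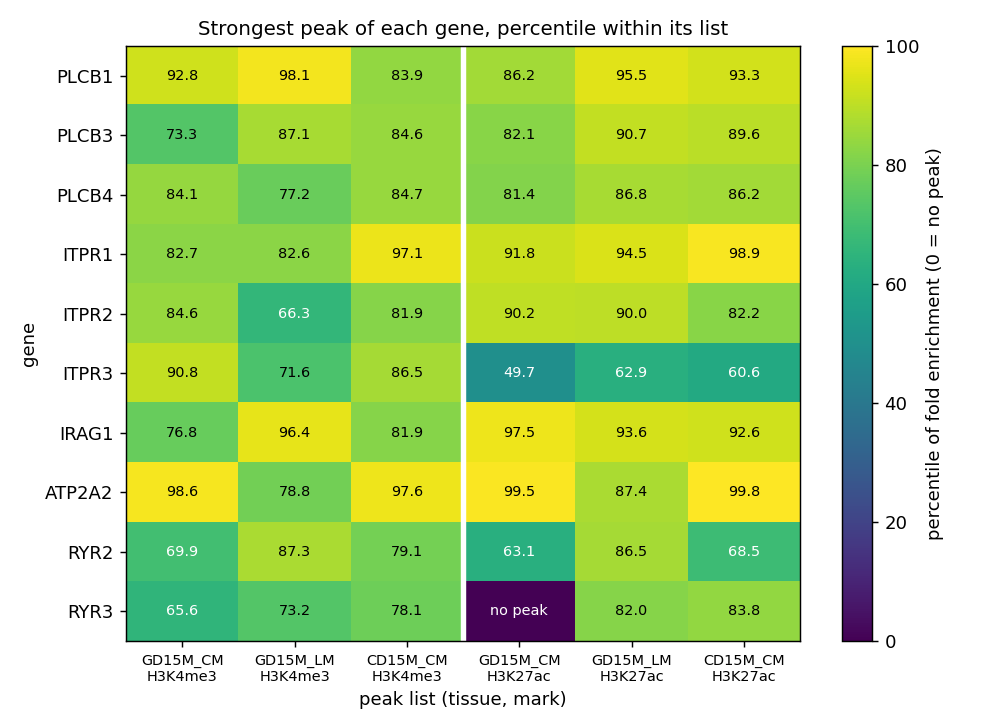
Percentile of the strongest peak (colour and printed value, 0 to 100) of each gene (rows) in each of the 6 peak lists (columns, tissue and mark). ATP2A2 was at 97.6 or above in both circular muscles for both marks and at 78.8 and 87.4 in GD15M_LM, RYR3 had no H3K27ac peak in GD15M_CM, and ITPR3 combined H3K4me3 percentiles of 71.6 to 90.8 with H3K27ac percentiles of 49.7 to 62.9.

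Phospholipase C beta. PLCB1 (chromosome 17, 17007197 to 17745314, 738 kb) encodes an isoform that is activated by Gq. Its strongest H3K4me3 peak lay at the lower-coordinate end of the gene, at the 92.8 percentile in GD15M_CM (fold enrichment 22.2), 98.1 in GD15M_LM (35.5) and 83.9 in CD15M_CM (20.6). The H3K27ac peak at the same end stood at 86.2, 95.5 and 93.3. GD15M_LM was therefore the highest of the 3 tissues for both marks, although neither layer difference reached 10 points. A second H3K27ac locus lay 706 kb inside, close to the other end of the gene, at 49.1 in GD15M_CM, 82.1 in GD15M_LM and 82.6 in CD15M_CM. An H3K4me3 peak of 657 bp was found there in GD15M_LM only, at the 46.1 percentile.

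PLCB4 (chromosome 17, 17915984 to 18402540) codes for another beta isoform and is the next member along the same chromosome. It had a single H3K4me3 peak in each tissue, at its lower-coordinate end, with percentiles of 84.1 in GD15M_CM, 77.2 in GD15M_LM and 84.7 in CD15M_CM. Its H3K27ac peak at that end stood at 79.5, 84.5 and 86.2. The tissues differed more in the number of H3K27ac peaks along the gene, which was 8 in GD15M_CM, 11 in GD15M_LM and 25 in CD15M_CM. Of 28 H3K27ac loci, counted after peaks that overlap between tissues were joined, 12 were found in CD15M_CM only and 7 in both GD15M_LM and CD15M_CM. One of these 7 lay 116 kb inside the gene, at the 86.8 percentile in GD15M_LM and 82.4 in CD15M_CM.

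PLCB3 (chromosome 2, 7844931 to 7860183) is the shortest of the 10 at 15.3 kb and lies among other genes. Its strongest H3K4me3 peak stood at 73.3 in GD15M_CM, 87.1 in GD15M_LM and 84.6 in CD15M_CM, and its strongest H3K27ac peak at 82.1, 90.7 and 89.6. For H3K4me3, GD15M_CM was the lowest at both ends of the gene, at 73.3 against 83.9 and 84.6 at the lower end and 63.9 against 87.1 and 76.5 at the upper end. The strongest H3K27ac peak lay at the lower end in GD15M_CM and GD15M_LM and at the upper end in CD15M_CM. End by end, H3K27ac stood at 82.1, 90.7 and 68.4 at the lower end and at 79.9, 79.2 and 89.6 at the upper end, so GD15M_CM was the lowest at neither. These peaks cannot be assigned to PLCB3 alone, since those at the lower end also cover BAD. The H3K4me3 peaks at the upper end ran for 20955 bp in GD15M_CM and 29865 bp in CD15M_CM, across PPP1R14B, FKBP2, VEGFB, TRPT1 and DNAJC4, and for 6966 bp in GD15M_LM.

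IP3 receptors and IRAG1. ITPR1 (chromosome 13, 61068131 to 61398918, 331 kb) encodes the type 1 IP3 receptor. Its H3K4me3 peak at the lower-coordinate end was 4062 to 4311 bp long in all 3 tissues. The percentile was 82.7 in GD15M_CM (fold enrichment 16.7), 82.6 in GD15M_LM (21.2) and 97.1 in CD15M_CM (32.8). The H3K4me3 percentile was thus alike in both layers of pregnancy and 14.4 points lower in pregnant than in cyclic circular muscle. The strongest H3K27ac peak at this end stood at 85.3, 73.2 and 85.9.

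ITPR1 carried more H3K27ac peaks than any other of the 10 genes, with 42 in GD15M_CM, 41 in GD15M_LM and 64 in CD15M_CM, and nearly all lay inside the gene. The median percentile of these peaks was 40.0, 48.8 and 44.2 in the same order. The strongest of them was at a different place in each tissue. In CD15M_CM it lay 12.6 kb inside the gene with a length of 2385 bp and a percentile of 98.9, where the strongest peaks of GD15M_CM and GD15M_LM within 2 kb stood at 45.9 and 67.9. In GD15M_LM it lay 183 kb inside at 94.5, against 55.9 in GD15M_CM and 79.7 in CD15M_CM. In GD15M_CM it lay 235 kb inside at 91.8, against 85.6 in GD15M_LM, while the strongest peak of CD15M_CM within 2 kb stood at 36.3 and the one that overlapped it at 10.8. Another locus, 84.3 kb inside, was strong in all 3 tissues, at 90.9, 85.5 and 92.6.

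IRAG1 (chromosome 2, 48745375 to 48930885, 186 kb) encodes the IP3 receptor-associated substrate of cGMP-dependent kinase. Its strongest H3K4me3 peak was not at a gene end but about 40 kb inside the annotated gene, between 48782934 and 48787970. It was 2464 bp long at the 76.8 percentile in GD15M_CM (fold enrichment 14.1), 5037 bp at 96.4 in GD15M_LM (32.0) and 4318 bp at 81.9 in CD15M_CM (19.5). The longitudinal layer thus had both the longest and the strongest single peak. In GD15M_CM this locus held 2 H3K4me3 peaks, against 1 in GD15M_LM and 1 in CD15M_CM, and the length given is that of the stronger. A non-coding gene, LOC110259302, is annotated just before this locus, so the peak may belong to more than 1 transcript. A weaker H3K4me3 peak at the lower-coordinate end of IRAG1 stood at 51.9, 58.3 and 61.9.

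The 2 H3K4me3 loci of IRAG1 were ordered differently by H3K27ac. At the gene end the H3K27ac percentile was 97.5 in GD15M_CM, 93.6 in GD15M_LM and 91.8 in CD15M_CM, so it was high in every tissue. At the inner locus it was 55.9, 77.9 and 92.6, lowest in GD15M_CM as H3K4me3 was. The highest tissue there was CD15M_CM for H3K27ac and GD15M_LM for H3K4me3. Further inside, a 1490 bp H3K27ac peak at 75.3 kb was found in CD15M_CM only, at the 90.3 percentile.

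**Figure D2:**
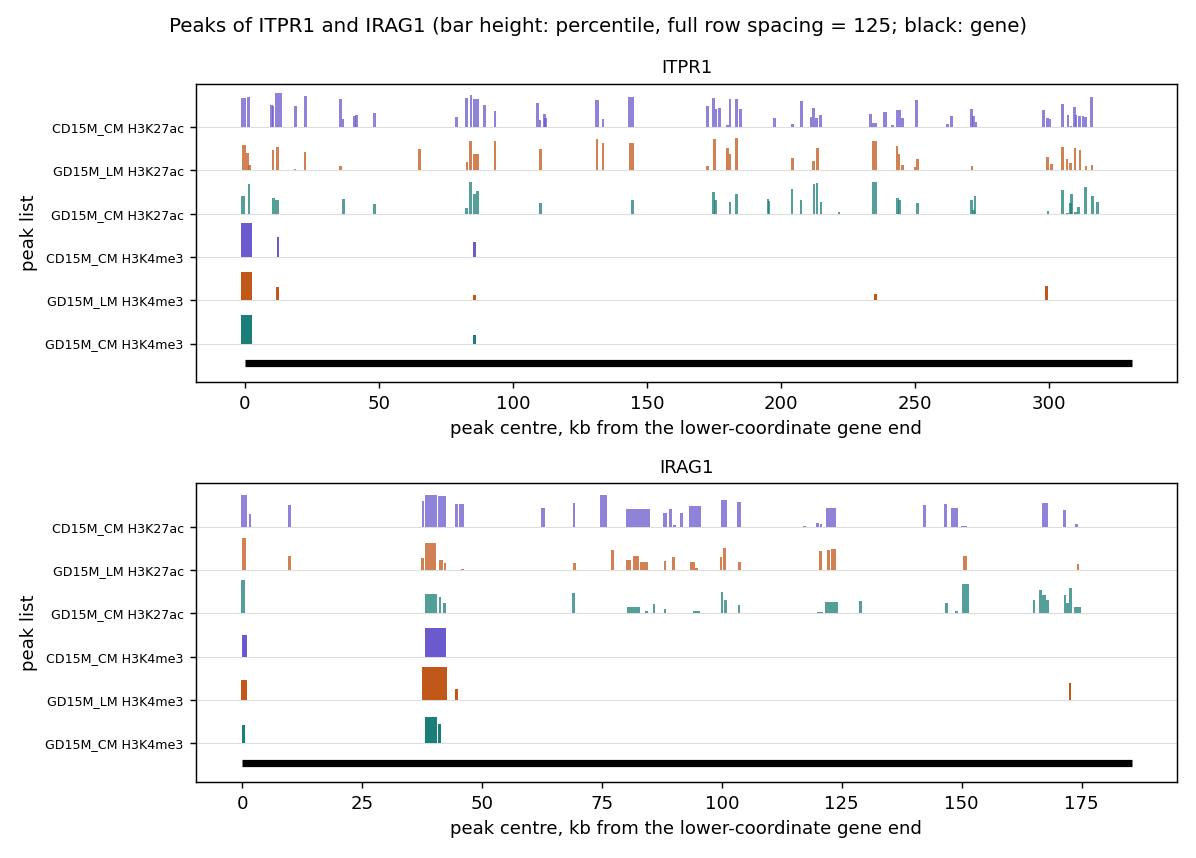
Peaks along ITPR1 and IRAG1 in the 6 lists, with the distance of the peak centre from the lower-coordinate gene end on the x axis (kb), the list on the y axis and bar height giving the percentile. Bars show peak width, widened for the narrowest peaks so that they stay visible, and the black line is the gene. The main H3K4me3 peak of ITPR1 was at the gene end and that of IRAG1 about 40 kb inside, while H3K27ac peaks ran along both genes.

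ITPR2 (chromosome 5, 46935923 to 47465681) encodes the type 2 IP3 receptor. Its H3K4me3 peak at the lower-coordinate end, where LOC110260584 is also annotated, stood at 84.6 in GD15M_CM, 66.3 in GD15M_LM and 81.9 in CD15M_CM. GD15M_LM was 18.3 points below GD15M_CM, with a peak of nearly the same length (3707 against 3611 bp). H3K27ac at this locus had another order, 90.2, 90.0 and 67.1, so that both layers of pregnancy were close and the cyclic muscle was the lowest.

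ITPR3 (chromosome 7, 29835922 to 29901305) encodes the type 3 IP3 receptor. Its H3K4me3 peak stood at 90.8 in GD15M_CM, 71.6 in GD15M_LM and 86.5 in CD15M_CM, 19.2 points lower in the longitudinal than in the circular layer of pregnancy. Its H3K27ac peaks were the weakest of the IP3 receptors, with a top percentile of 49.7 in GD15M_CM, 62.9 in GD15M_LM and 60.6 in CD15M_CM. In GD15M_CM the H3K27ac peak over the gene end was 3907 bp long but only at the 44.4 percentile, against 1147 bp at 62.9 in GD15M_LM. ITPR2 and ITPR3 thus shared a lower H3K4me3 percentile in the longitudinal layer, which ITPR1 did not have.

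The pump. ATP2A2 (chromosome 14, 31674659 to 31744981) encodes SERCA2, which returns calcium to the sarcoplasmic reticulum. Its H3K4me3 peak at the lower-coordinate end stood at 98.6 in GD15M_CM (fold enrichment 29.9), 78.8 in GD15M_LM (19.1) and 97.6 in CD15M_CM (33.8). H3K27ac followed the same order of layers, at 99.5, 87.4 and 99.8. ATP2A2 was the only one of the 10 genes that was at least 10 points lower in GD15M_LM than in GD15M_CM for both marks, but neither difference reached 10 points when peaks were ranked by −log10 p, at -8.92 for H3K4me3 and -5.59 for H3K27ac. A second H3K27ac peak at the upper end, where ANAPC7 overlaps, stood at 93.1 in GD15M_CM, 54.4 in GD15M_LM and 53.3 in CD15M_CM. Of 16 H3K27ac loci, 8 were found in GD15M_CM only and 2 in all 3 tissues.

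Ryanodine receptors. RYR2 (chromosome 14, 53652140 to 54406691, 755 kb) and RYR3 (chromosome 7, 80640030 to 81208576, 569 kb) encode calcium release channels. Both had their H3K4me3 peak at the upper-coordinate end. The RYR2 peak stood at 69.9 in GD15M_CM (fold enrichment 11.1), 87.3 in GD15M_LM (23.9) and 79.1 in CD15M_CM (17.8), and H3K27ac at the same place at 63.1, 86.5 and 30.7. The longitudinal layer was the highest for both marks, by 17.5 and 23.4 points over the circular layer of pregnancy.

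Along RYR2, GD15M_CM had no H3K27ac peak other than 2 at that end, while GD15M_LM had 10 peaks and CD15M_CM had 9. The inner peaks lay between 611 and 740 kb from the lower-coordinate end, on the side of the gene where the H3K4me3 peak is. Of 14 H3K27ac loci, 4 were found in GD15M_LM and CD15M_CM but not in GD15M_CM, and 1 was found in all 3 tissues. The strongest H3K27ac peak of CD15M_CM was one of these inner peaks, 721 kb from the lower end, at 68.5. For this reason the difference of GD15M_CM from CD15M_CM was -5.40 points over the whole gene but 32.4 points when only peaks within 3 kb of a gene end were counted.

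RYR3 had the weakest H3K4me3 peak of the 10 genes in GD15M_CM, at the 65.6 percentile (fold enrichment 9.04, 1938 bp). It stood at 73.2 in GD15M_LM (16.2, 3269 bp) and 78.1 in CD15M_CM (17.3, 2375 bp). H3K27ac was at 82.0 in GD15M_LM and 83.8 in CD15M_CM at this end, with 6 and 7 peaks over the gene, and no peak was listed in GD15M_CM. The lists hold only peaks that passed the caller's threshold, so a missing peak does not mean a missing signal. A second locus about 214 kb inside RYR3 had H3K27ac at 56.5 in GD15M_LM and 61.7 in CD15M_CM, and an H3K4me3 peak of 1471 bp at 59.0 in GD15M_LM only. AVEN overlaps the other end of RYR3.

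**Figure D3:**
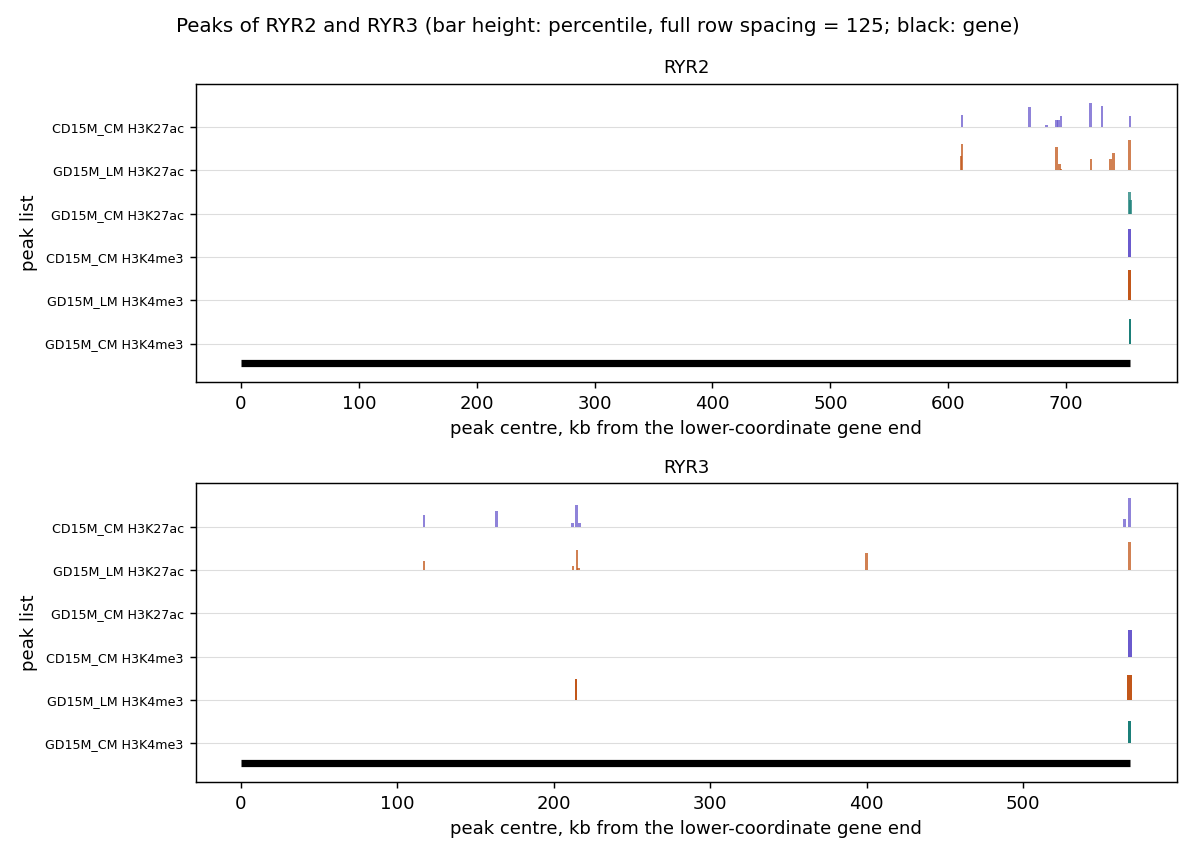
Peaks along RYR2 and RYR3 in the 6 lists, drawn as for ITPR1 and IRAG1, with distance from the lower-coordinate gene end in kb on the x axis, the list on the y axis and the percentile as bar height. Narrow peaks were widened to stay visible. Both H3K4me3 peaks sit at the upper-coordinate end, and the GD15M_CM H3K27ac list has only 2 peaks along RYR2 and none along RYR3.

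The layers were compared to ask how the marks at these genes differed between longitudinal and circular muscle of pregnancy. A difference of at least 10 points was counted as higher or lower. For H3K4me3, 3 of 10 genes were higher in GD15M_LM (PLCB3, IRAG1 and RYR2, by 13.7, 19.6 and 17.5 points), against 19.3% of all protein-coding genes with a peak. Another 3 were lower (ITPR2, ITPR3 and ATP2A2, with differences of -18.3, -19.2 and -19.8), against 20.3%. The median difference was 2.54 points in the 10 genes and -0.419 in all genes, and 5 of 10 were higher by any amount, against 48.2%. At this number of genes the shares were near those of all genes, with the pump and 2 IP3 receptors differing one way and IRAG1 and RYR2 the other way. The difference of IRAG1, whose strongest H3K4me3 peak lies inside the gene, was 6.32 with peaks within 3 kb of a gene end only and 1.58 with percentiles among such peaks, and that of PLCB3 was 7.66 when ranked by −log10 p.

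For H3K27ac, 3 of 10 genes were higher in GD15M_LM (ITPR3, RYR2 and RYR3, by 13.3, 23.4 and 82.0 points), against 21.6% of all genes, and ATP2A2 was lower with a difference of -12.1, against 32%. The median difference was 7.02 points in the 10 genes and -1.97 in all genes, and 7 of 10 were higher by any amount, against 43.2%. RYR2 was higher and ATP2A2 lower in GD15M_LM for both marks. The H3K27ac difference of ITPR3 changed sign, to -7.66, when peaks were ranked by −log10 p, and to -16.1 with 10 kb on both sides of the gene. Fold enrichments were on the whole larger in GD15M_LM, with a median log2 ratio to GD15M_CM of 0.32 for H3K4me3 and 0.11 for H3K27ac over all genes. For PLCB4 and ITPR1 the H3K4me3 fold enrichment was 1.06 and 1.27 times that of GD15M_CM while the percentile differences were -6.88 and -0.141.

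Between the layers, the H3K4me3 median of the epithelial markers differed more than that of any other marker list. All 6 epithelial markers had an H3K4me3 peak in every tissue, with percentiles of 75.1 to 81.6 in GD15M_CM (median 79.4), 12.9 to 59.4 in GD15M_LM (59.0) and 71.9 to 87.4 in CD15M_CM (81.5). For H3K27ac their median was 75.5, 13.6 and 68.1, with KRT18 and KRT19 at 0 in GD15M_LM. The medians of the 5 T cell markers for H3K4me3 were 66.8, 57.8 and 52.6, and those of the 8 smooth muscle markers for H3K27ac 87.4, 91.0 and 94.2. The part of these differences in the values of the calcium store genes was not tested. In bulk tissue, fewer cells of a type and less of a mark per cell cannot be told apart.

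Pregnant and cyclic circular muscle were compared to ask what differed with pregnancy within 1 layer. For H3K4me3, none of the 10 genes was at least 10 points higher in GD15M_CM, against 11.9% of all genes. The genes PLCB3, ITPR1 and RYR3 were lower, with differences of -11.3, -14.4 and -12.4, against 23.1%. The median difference was -2.90 points in the 10 genes and -2.04 in all genes, and 4 of 10 were higher by any amount, against 40.7%. PLCB1 was the highest in the other direction, at 8.98 points.

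For H3K27ac, again none of the 10 was at least 10 points higher in GD15M_CM, against 24.6% of all genes, and ITPR3 and RYR3 were lower with differences of -11.0 and -83.8, against 25.4%. The median difference was -6.22 points in the 10 genes and -0.0499 in all genes. Only ITPR2 and IRAG1 were higher by any amount, at 8.05 and 4.85 points, against 49.7% of all genes. These values compare the strongest peak of each tissue wherever it lies in the gene. At the main H3K4me3 locus of each gene, a setting added after the data were seen, the H3K27ac differences were 23.1 for ITPR2, 32.4 for RYR2 and -36.7 for IRAG1, and those of ITPR2 and RYR2 were the same with peaks within 3 kb of a gene end only. RYR3 was the only gene lower by 10 points for both marks. The ITPR3 difference became 2.22 when peaks were ranked by −log10 p and 18.4 with 10 kb on both sides of the gene. The median log2 ratio of fold enrichments over all genes was -0.33 for H3K4me3 and 0.01 for H3K27ac. Both comparisons share the GD15M_CM lists, so that a low value in GD15M_CM gives a difference in each.

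**Figure D4:**
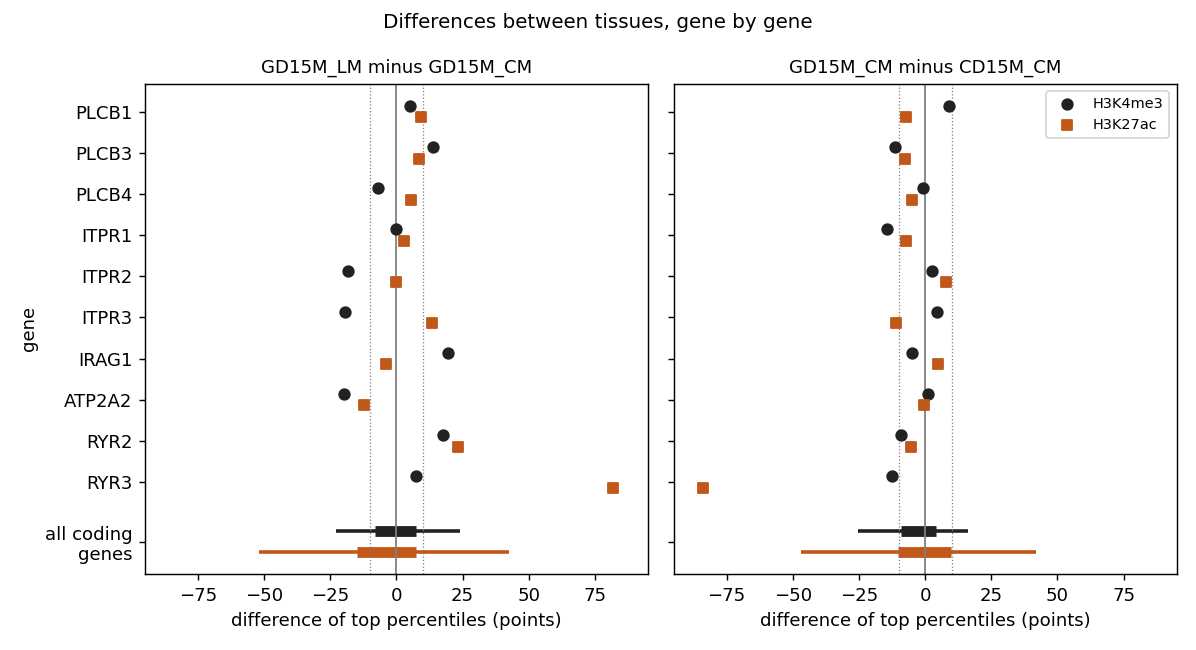
Difference of top percentiles in points (x axis) for each gene (y axis), for H3K4me3 (circles) and H3K27ac (squares), between the layers of pregnancy (left) and between pregnant and cyclic circular muscle (right). Dotted lines mark 10 points, and the bars at the bottom span the 5th to 95th (thin) and 25th to 75th (thick) percentiles of all protein-coding genes. RYR3 H3K27ac lies at 82.0 and -83.8, and the other differences lie between -19.8 and 23.4.

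By the order of the 3 tissues, GD15M_CM had the lowest H3K27ac percentile in 7 of the 10 genes, GD15M_LM in 1 and CD15M_CM in 2, against 29.1%, 38.5% and 27.5% of all genes with a peak. The 3 exceptions to GD15M_CM were ITPR2, IRAG1 and ATP2A2. In several of the genes the strongest peak did not lie at the same place in all 3 tissues. At the main H3K4me3 locus, which could be set for 9 genes without PLCB3, GD15M_CM was the lowest for H3K27ac in 5, and GD15M_LM (ITPR1 and ATP2A2) and CD15M_CM (ITPR2 and RYR2) in 2 each. The order at main loci was not computed for all genes, so these counts have no share to be set against. Over the whole gene, GD15M_CM had the highest H3K27ac percentile in 2 genes, GD15M_LM in 5 and CD15M_CM in 3, against 37%, 26.7% and 36.3%. For H3K4me3, the lowest tissue was GD15M_CM in 4 genes, GD15M_LM in 5 and CD15M_CM in 1, against 36.3%, 39.3% and 21.6%. The highest was GD15M_CM in 3, GD15M_LM in 4 and CD15M_CM in 3, against 30%, 28.2% and 41.8%.

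The number of H3K27ac peaks along the genes set ITPR1 and IRAG1 apart from the other long members. ITPR1 had 12.7 peaks per 100 kb in GD15M_CM, 12.4 in GD15M_LM and 19.3 in CD15M_CM, and IRAG1 had 14.6, 12.9 and 16.2. The median of the 2880 protein-coding genes of at least 100 kb was 1.67, 1.12 and 1.88. Of these genes, 89.9%, 93.6% and 94.2% had a lower density than ITPR1, and 92.0%, 94.1% and 92.0% a lower density than IRAG1. PLCB4 stood near the median in GD15M_CM, at 1.64, and above it in GD15M_LM and CD15M_CM, at 2.26 and 5.14. PLCB1, ITPR2, RYR2 and RYR3 had fewer than 1.4 peaks per 100 kb in every tissue. These densities count every listed peak, weak ones included. The median percentile of the IRAG1 H3K27ac peaks was 35.8 in GD15M_CM, 35.8 in GD15M_LM and 57.3 in CD15M_CM.

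**Figure D5:**
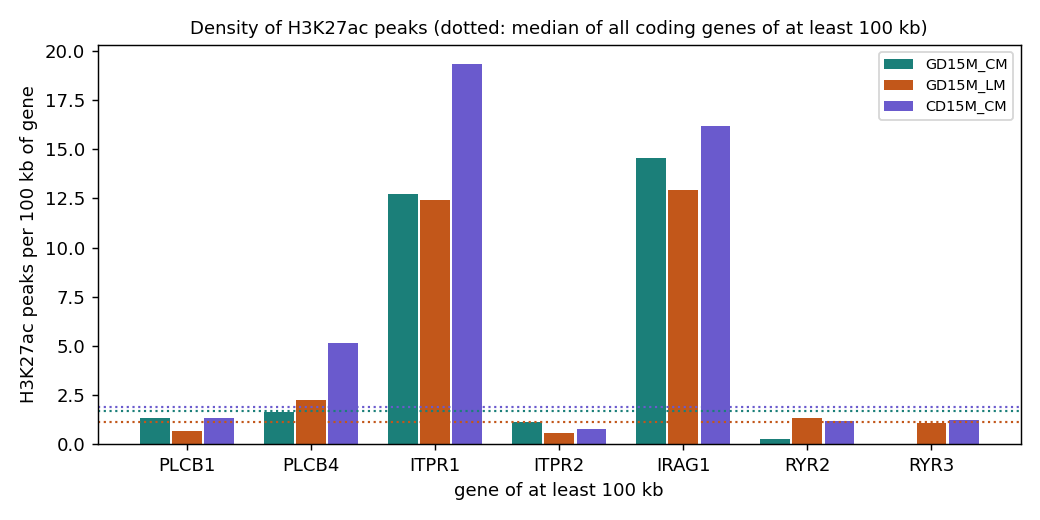
Number of H3K27ac peaks per 100 kb (y axis) along the 7 genes of at least 100 kb (x axis) in the 3 tissues (bar colours), with dotted lines at the median of all protein-coding genes of at least 100 kb. ITPR1 and IRAG1 range from 12.4 to 19.3, and the other 5 genes from 0 to 5.14.

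In all, the 10 genes held 120 H3K27ac peaks over 86273 bp in GD15M_CM, 111 over 79370 bp in GD15M_LM and 166 over 131514 bp in CD15M_CM. Near all protein-coding genes the H3K27ac peaks numbered 61551, 44386 and 62896 in the same order, so GD15M_LM had the fewest there too. Most H3K27ac peaks of the 10 genes were inner peaks, farther than 3 kb from a gene end, with 98, 92 and 146. Their H3K4me3 peaks numbered 20, 27 and 26, over 41177, 51624 and 49668 bp, beside 29199, 27371 and 31082 peaks near all protein-coding genes. An H3K4me3 peak overlapped 17.5% (95% Wilson interval 11.7 to 25.3%, counting error only) of the H3K27ac peaks in GD15M_CM, 24.3% (17.3 to 33.1%) in GD15M_LM and 12.7% (8.43 to 18.6%) in CD15M_CM. Among all peaks near protein-coding genes these shares were 38.9%, 51.2% and 40.1%. Those shares, and the shares of loci and peaks near all genes given below, cover genes of every length. Most of these 10 genes are at least 100 kb long, and no share was computed for long genes only.

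Peaks that overlapped between tissues were joined into 203 H3K27ac loci, of which 56 were found in all 3 tissues, against 33.9% of the loci near all protein-coding genes. CD15M_CM alone held 57, GD15M_CM alone 31 and GD15M_LM alone 13, beside 19.4%, 20.8% and 5.16% of loci near all genes. Another 28 were shared by GD15M_LM and CD15M_CM and 18 by both circular muscles, beside 7.18% and 12%. No locus was shared by the 2 tissues of pregnancy only, which was also the rarest pattern near all genes, at 1.65%. Of the 28 loci shared by GD15M_LM and CD15M_CM, 8 were at ITPR1, 7 at PLCB4, and 4 each at IRAG1, RYR2 and RYR3. Of 31 H3K4me3 loci, 15 were found in all 3 tissues, against 46.5% near all genes. GD15M_LM alone held 7, CD15M_CM alone 5 and GD15M_CM alone 1, beside 11.4%, 16.7% and 9.7%. A further 3 were shared by GD15M_LM and CD15M_CM only, beside 6.97%, and none by both circular muscles only or by both tissues of pregnancy only, beside 6.25% and 2.51%.

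By peak, 34.3% (27.5 to 41.8%) of the H3K27ac peaks of CD15M_CM in these genes had no counterpart in either other tissue, against 24.1% near all genes. The shares were 25.8% (18.8 to 34.3%) against 26.4% in GD15M_CM and 11.7% (6.97 to 19.0%) against 9.08% in GD15M_LM. For H3K4me3 they were 5% (0.888 to 23.6%) against 12% in GD15M_CM, 25.9% (13.2 to 44.7%) against 15.1% in GD15M_LM and 19.2% (8.51 to 37.9%) against 19.4% in CD15M_CM. Of the 57 such peaks in CD15M_CM, ITPR1 held 21, PLCB4 12 and IRAG1 8. The intervals take peaks as independent, which peaks of the same gene in a pooled list need not be, so they are no test of a difference.

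Of 55 other genes of the pathway, which include the Gq subunits, the remaining phospholipases C, store proteins and calcium transporters, 54 were placed. For H3K4me3, 9 of the 50 with a peak were at least 10 points higher in GD15M_LM than in GD15M_CM and 9 were lower. Genes were ranked only if they had a peak in both lists. The largest difference upward was that of JPH2, a junctophilin that tethers the sarcoplasmic reticulum to the plasma membrane (94.5 against 67.6). PLN, the inhibitor of SERCA (90.0 against 68.6), and GNA14, a Gq family subunit (85.7 against 67.7), came next. The largest downward were those of ATP2A1, PLCH1 and FKBP1A, at 10.0, 57.5 and 70.3 against 40.7, 83.7 and 89.9. Left out of this ranking were CASQ2, with no peak in GD15M_CM and at 35.9 in GD15M_LM, and PLCD4, at 57.1 in GD15M_CM with no peak in GD15M_LM.

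For H3K27ac, 6 of 50 pathway genes were higher in GD15M_LM and 18 lower. PLCE1, ASPH and PLCD3 led upward, at 69.8, 90.9 and 90.5 against 14.6, 69.4 and 73.7. These were ranked among genes with a peak in both lists. PLN, named here after its values were seen, had no H3K27ac peak in GD15M_CM and stood at 79.4 in GD15M_LM and 76.0 in CD15M_CM. RYR3 likewise lacked a peak in GD15M_CM alone. GNA11, the second widespread Gq family subunit, led downward at 17.6 in GD15M_LM against 99.4 in GD15M_CM, followed by RGS4 at 14.5 against 89.9 and PLCD4 at 23.1 against 76.9. Another gene model named PLCD4 had no peak in any list. The median of the pathway list was -1.76 points, beside 7.02 in the 10 genes.

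Between pregnant and cyclic circular muscle, 6 of 50 pathway genes were at least 10 points higher in GD15M_CM for H3K4me3 and 14 were lower. Of those with a peak in both lists, GNA11, ATP2C1 and PLCH1 led upward, at 91.5, 95.5 and 83.7 against 76.7, 81.6 and 69.9. RGS5, a regulator of G protein signalling, led downward at 37.2 against 70.7, followed by JPH2 at 67.6 against 87.9 and TMEM38B at 75.1 against 95.2. For H3K27ac, 6 of 52 were higher and 14 lower. Again among genes with a peak in both lists, PLCG2, CASQ2 and CALM2 led upward, at 70.3, 79.1 and 85.3 against 20.0, 33.1 and 48.6. PLCE1, SLN and FKBP1B led downward, at 14.6, 34.3 and 69.0 against 56.4, 72.8 and 97.6. CASQ2 went the other way for H3K4me3, with no peak in GD15M_CM and 46.2 in CD15M_CM, and was not ranked for that mark. RGS5, also named after its values were seen, had no H3K27ac peak in GD15M_CM or in GD15M_LM and stood at 73.4 in CD15M_CM.

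Over the 6 lists, the pathway gene with the profile nearest to ITPR1 was SLC8A1, a sodium and calcium exchanger, at a Euclidean distance of 10.2 points. PLCL1 was the nearest to both PLCB3 and PLCB4, at 10.0 and 10.2 points, PRKCE to PLCB1 at 13.2, ITPKC to ITPR2 at 12.0, INPP5A to IRAG1 at 13.7 and PRKG1 to ATP2A2 at 14.2. RYR2 and ITPR3 had no close neighbour, since GNA14 lay 27.3 points from RYR2 and ATP2A3 lay 37.4 points from ITPR3. RYR3 was left out because it lacked a peak in 1 list.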

How the data were processed

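CUT&Tag libraries for H3K4me3, H3K27ac and IgG were prepared by the authors from 2 gilts per group, and groups follow the labels. The authors mapped reads to Sus scrofa 11.1 with BWA 0.7.17-r1188, filtered them with SAMtools 1.9 and Picard 2.8.3, pooled the replicates of each group, and ran MACS2 2.2.6 for peak calling. The deposited lists give for each peak its length in bp, its fold enrichment, a ratio over IgG, and a −log10 p value. The headers of the −log10 columns were unreadable, and the second, taken to be −log10 q, was not used. Depth per library was not used here. Wilson intervals cover counting error only and take peaks as independent.

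Peaks overlapping a gene or its 3 kb flanks by at least 1 bp were assigned to it, with gene positions from RefSeq (Sscrofa11.1). Strand was not used, so positions are given from the lower-coordinate end and transcription start sites were not told from 3′ ends. The highest fold enrichment was ranked within its list, and a difference of at least 10 points was counted. All members are named. Of the pathway list, the 3 genes with the largest difference in each direction and a peak in both lists are named. Likeness is the Euclidean distance over the 6 top percentiles. The members and lists were chosen with earlier results of these data known. Cell type markers were used as lists. Markers of endothelium (median H3K4me3 percentile 60.2, 62.8 and 65.5 in GD15M_CM, GD15M_LM and CD15M_CM), macrophages (69.3, 59.9 and 71.5), fibroblasts (70.2, 75.5 and 81.0), mural cells (72.8, 71.7 and 78.7), interstitial cells (68.4, 64.5 and 73.9) and mesothelium (54.2, 61.0 and 59.9) were also measured, and the 3 placed markers of neurons and glia had no H3K4me3 peak. Steps were tested on simulated data. Python 3.11.15, pandas 2.3.3, NumPy 2.4.6, SciPy 1.17.1 and Matplotlib 3.10.9 were used.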

Additional observations from a re-analysis of the deposited data

How the results depend on the processing

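Of 15 differences of at least 10 points (of 40 in all), 13 kept their direction and 8 stayed at 10 points or more under every setting below that gave a value, that of the main locus aside. Those 8 were the H3K4me3 layer differences of ITPR2, ITPR3 and RYR2, the H3K4me3 differences of ITPR1 and RYR3 between pregnant and cyclic muscle, the H3K27ac layer differences of RYR2 and RYR3, and the H3K27ac difference of RYR3 between pregnant and cyclic muscle, which gave no value at the stricter threshold because no RYR3 peak of either tissue passed it. The cause of the changes that follow was not tested. With peaks kept from a fold enrichment of 5 and a −log10 p of 10 upward, fewer peaks remained by construction: 13, 14 and 13 H3K4me3 peaks and 6, 16 and 12 H3K27ac peaks over 10135, 26805 and 26168 bp in GD15M_CM, GD15M_LM and CD15M_CM, and 4 and 6 genes with an H3K27ac peak in GD15M_CM and CD15M_CM. Peaks in 1 tissue only then made up 0%, 14.3% and 0% of the H3K4me3 peaks in GD15M_CM, GD15M_LM and CD15M_CM. Near all genes these shares were 0.697%, 1.09% and 0.605% at that threshold. For H3K27ac they were 0%, 0% and 8.33%, against 1.78%, 0.104% and 0.450%. Of the H3K27ac peaks, 66.7%, 75% and 75% overlapped H3K4me3, against 84.6%, 89.1% and 81.1% near all genes at that threshold. For H3K4me3, 5 of 10 genes were then higher in GD15M_LM and 2 of 10 higher in GD15M_CM than in CD15M_CM, against 34.9% and 25.3% of all genes at that threshold. For H3K27ac, 7 of the 9 genes with a peak left were higher and 2 lower in GD15M_LM, against 47.0% and 35.0%, and 2 of 7 were higher and 3 lower in GD15M_CM than in CD15M_CM, against 41.5% and 39.8%. Under the settings that follow, the share of all genes counted as higher or lower was not computed. Their counts of higher and lower genes therefore cannot be set against all genes. With equal numbers of top peaks per list, the H3K4me3 count higher in GD15M_CM than in CD15M_CM was 1. The H3K27ac count higher in GD15M_LM was 6 and the H3K27ac count lower in GD15M_CM than in CD15M_CM was 1. With percentiles among peaks near gene ends, 1 gene was higher in GD15M_CM than in CD15M_CM for H3K4me3, and for H3K27ac 2 were lower in GD15M_LM and 2 higher and 4 lower in GD15M_CM than in CD15M_CM. Ranked by −log10 p, the H3K27ac counts lower were 0 in GD15M_LM and 1 in GD15M_CM against CD15M_CM, and ITPR3 changed sign, to -7.66 between layers and 2.22 between pregnant and cyclic muscle. With peaks within 3 kb of a gene end only, 2 genes were lower in GD15M_LM and 2 higher in GD15M_CM than in CD15M_CM for H3K27ac. With 10 kb flanks, 2 were lower in GD15M_LM, and 1 was higher and 1 lower in GD15M_CM than in CD15M_CM, with ITPR3 at -16.1 and 18.4. Joining peaks less than 1 kb apart left 17 H3K4me3 peaks in CD15M_CM and 77 H3K27ac peaks in GD15M_CM. Requiring 50% of a peak to overlap raised the share of CD15M_CM H3K27ac peaks found there only to 47.0%, against 33.9% near all genes under the same rule. Counting only peaks at the main H3K4me3 locus of a gene, chosen after seeing the data, gave 2 genes lower in GD15M_LM and 2 higher in GD15M_CM than in CD15M_CM for H3K27ac. No paired analysis was possible because the lists pool both replicates and hold no value per gilt, and for the same reason no replicate could be left out. Depth per library was not used here, so what it limits was not assessed.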
